A study of Mus musculus with 28 samples.

Results

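Liver X receptors (LXRs) are nuclear receptors that bind oxysterols and turn on genes for cholesterol export, fatty acid synthesis and membrane phospholipid remodelling. Without ligand they sit on DNA with the NCOR and SMRT corepressor complexes, of which TBL1XR1 is a core subunit. Germinal center B cells divide rapidly in lymphoid follicles after antigen exposure, and dividing cells build new lipid membrane. The 10 genes described here, of 23382 gene symbols in each file, are the LXR genes Nr1h2 and Nr1h3, the cholesterol transporters Abca1 and Abcg1, the targets Mylip, Srebf1 and Lpcat3, and the lipid handling genes Cd36, Mgll and Osbpl3. They were picked by name, as LXR receptors, their targets and lipid genes seen to be higher with a Tbl1xr1 allele in these same libraries. Their values in each allele against its own control chose them, so those comparisons are given as a description, and nothing is inferred from them. Osbpl3 did not follow that wording, since it was lower with each allele, and the differences of Nr1h2 and Srebf1 lay between -0.12 and 0.10 on the log2 scale.

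RNA from mouse germinal center B cells was sequenced in 28 libraries in 6 groups, all carrying 1 copy of the Cg1Cre transgene, which drives Cre recombinase in B cells that begin germline transcription of the IgG1 constant region. D370Y libraries (n = 5) came from cells with 1 Tbl1xr1 allele changed to D370Y, and WT libraries (n = 3) from cells with unchanged Tbl1xr1. ImuBcl6 D370Y libraries (n = 5) carried the same allele on top of ImuBCL6, a transgene that keeps BCL6 expressed from immunoglobulin heavy chain control sequence, and ImuBcl6 libraries (n = 5) carried the transgene with unchanged Tbl1xr1. KO libraries (n = 5) are labelled as having lost both Tbl1xr1 alleles, and Cre control libraries (n = 5) have the same genotype label as WT. The labels do not say how many animals made a library, their age or how cells were sorted, so p-values measure the spread between these libraries, which may in part be technical.

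Libraries held 19.0 to 37.7 M reads on listed genes, so 3 reads, the floor used here, were worth 0.0640 to 0.133 CPM (read counts scaled to a common total per library). All 11 germinal center B cell markers were above 1 CPM on average in every group, with a summed level of 4774 to 8774 CPM. This does not make the groups alike. Mki67 averaged 1805 ± 99.2 CPM in WT and 291 ± 63.5 CPM in Cre control libraries (SD, n = 3 and 5). Bcl6 averaged 363 ± 4.18 and 350 ± 24.9 CPM in the same groups. Tbl1xr1 itself averaged 146 ± 11.6 CPM in D370Y and 168 ± 10.2 CPM in WT libraries (SD, n = 5 and 3), 98.3 ± 2.43 CPM in ImuBcl6 D370Y and 128 ± 20.6 CPM in ImuBcl6 libraries (SD, n = 5 each), and 102 ± 15.4 CPM in libraries labelled KO and 86.0 ± 5.82 CPM in Cre control libraries (SD, n = 5 each). The KO mean was thus above that of its control. Which part of the gene was removed is not stated in the labels, so this total does not check them, and every direction drawn from these libraries rests on the labels. The sex-linked genes split the groups: all 5 D370Y libraries had the Xist pattern and all 3 WT libraries the Y pattern, all 5 ImuBcl6 D370Y libraries the Y pattern and all 5 ImuBcl6 libraries the Xist pattern. Sex and genotype cannot be told apart within either pair, and the patterns are reversed between the pairs. Libraries labelled KO (3 with the Y and 2 with the Xist pattern) and Cre controls (1 and 4) were mixed.

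Cd36, Abca1 and Abcg1 were higher on average in the libraries of each allele than in those of its own control, by 0.21 to 1.46 on the log2 scale. The smallest of these, 0.21 for Abca1 in D370Y libraries, came from overlapping groups and became 0.06 without D370Y replicate 5. Cd36 differed by more than 1 log2 unit, or more than 2-fold, in every pair. Mylip was higher by 0.16 to 0.31, Mgll by 0.17 to 0.89, while the differences of Osbpl3 ran from -0.30 to -1.10. Over all 10600, 10784 and 10514 genes tested in the D370Y, ImuBcl6 D370Y and KO comparisons, the median difference was -0.02, -0.01 and -0.06.

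**Figure D1:**
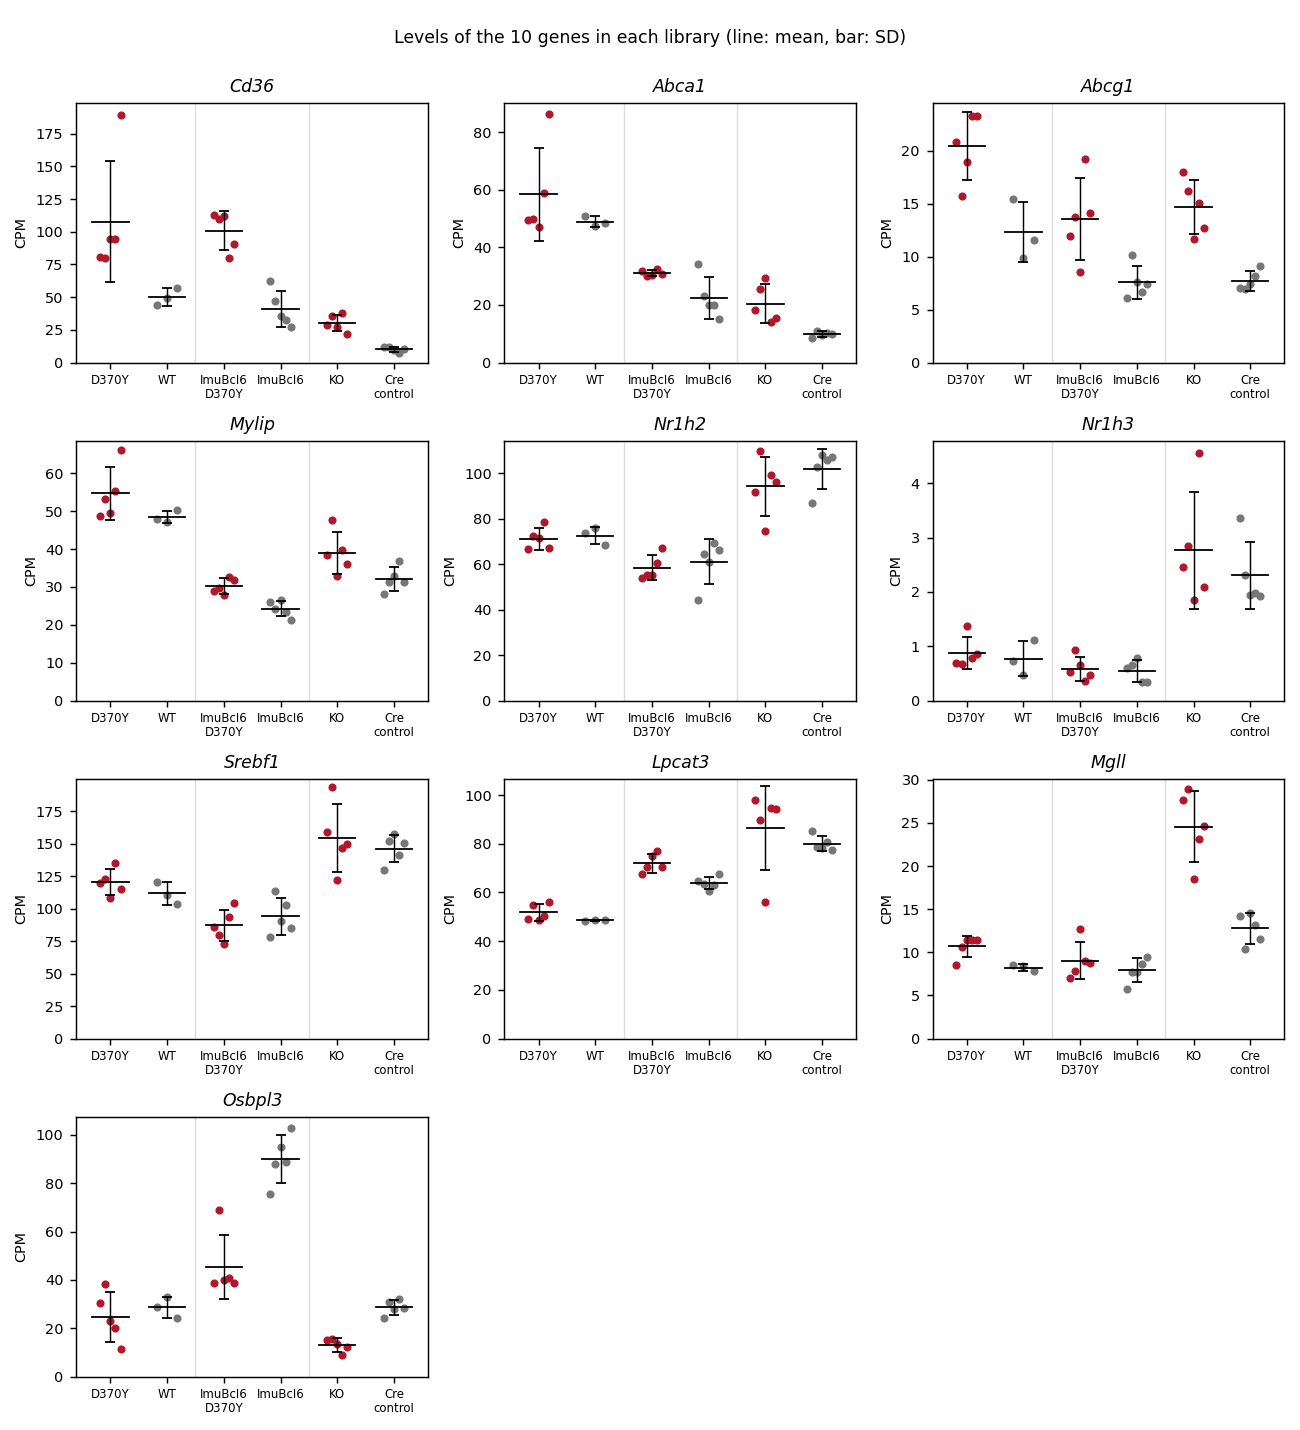
Level in CPM (vertical axis, linear, starting at 0) of each of the 10 genes in each of the 28 libraries, by group, with allele groups in red and their controls in grey; the long line is the group mean and the bar 1 SD. Cd36 is above its control in every library of all 3 allele groups, while Osbpl3 lies below its control in every ImuBcl6 D370Y library and every library labelled KO.

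The receptors themselves differed little between an allele and its control. Nr1h2 (LXR beta, chromosome 7, 44549616 to 44553951 in GRCm38) is the form made in most tissues. It was at 66.6, 72.6, 71.4, 78.7 and 67.2 CPM in D370Y libraries and 73.6, 75.8 and 68.5 CPM in WT libraries, a difference of -0.03 ± 0.07 (log2 scale, SE). It ranged over 54.1 to 67.1 CPM in ImuBcl6 D370Y and 44.4 to 69.3 CPM in ImuBcl6 libraries (-0.05 ± 0.11). In libraries labelled KO it ranged over 74.5 to 110.0 CPM, and in Cre controls over 86.9 to 108 CPM (-0.12 ± 0.11). The groups overlapped in all 3 pairs. Nr1h3 (LXR alpha, chromosome 2, 91184061 to 91202834), the form prominent in liver and macrophages, was scarce. It had 0.671 to 1.38 CPM in D370Y, 0.473 to 1.11 CPM in WT, 0.361 to 0.939 CPM in ImuBcl6 D370Y and 0.335 to 0.785 CPM in ImuBcl6 libraries, and it did not pass the filter on low values in those pairs. In the libraries labelled KO it ranged over 1.86 to 4.57 CPM and in Cre controls over 1.93 to 3.36 CPM, with a difference of 0.17 ± 0.17. Set against the length of the union of exons, Nr1h2 stood 25.6 times above Nr1h3 in libraries labelled KO and 33.2 times in Cre controls, and 60.9 times in D370Y and 70.6 times in WT libraries. The ratio per length was 74.3 in ImuBcl6 D370Y and 84.7 in ImuBcl6 libraries. The 16 macrophage markers had their highest summed level in the libraries labelled KO and the Cre controls, the groups with most Nr1h3, and their part in this was not tested.

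Promoter sequence was searched for the elements these receptors and their relatives bind, since several of the targets were higher with each allele. Promoters from 250 bases before to 50 bases after each start (RefSeq, build GRCm38.p6) were found for 9 of the 10 genes, in 13 entries, with Abcg1 unmatched. The LXR element was written as a direct repeat of AGGTCA with 4 free bases between the copies, and the PPAR element as the same repeat with 1 free base. Both strands were searched. With up to 2 mismatches the LXR element occurred in 3.02% of 32851 promoters and in none of the 10 genes' entries. With up to 3 mismatches it occurred in 21.9% of all promoters and in those of Abca1 and Srebf1, from 67 to 52 and from 182 to 167 bases before the start. The PPAR element with up to 2 mismatches occurred in 3.86% of all promoters and in that of Cd36, from 63 to 51 bases before the start; with up to 3 mismatches it was in 24.6% of all promoters and in those of Cd36 and Lpcat3. The 250 bases before the start are shown for Abca1, Srebf1 (the most downstream of its 3 starts) and Cd36, read 5′ to 3′ on the strand of the gene, with the match in capitals. All 3 matches lie on the opposite strand, so the capitals read as the reverse complement of the element. The stretches are chr4:53159896-53160145, chr11:60210472-60210721 and chr5:17835897-17836146, all on the minus strand.
Abca1: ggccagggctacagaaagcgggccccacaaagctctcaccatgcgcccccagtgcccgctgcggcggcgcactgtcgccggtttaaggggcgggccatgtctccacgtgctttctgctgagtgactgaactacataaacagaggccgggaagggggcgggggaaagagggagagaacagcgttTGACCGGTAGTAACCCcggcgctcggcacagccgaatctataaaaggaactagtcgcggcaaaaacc
Srebf1: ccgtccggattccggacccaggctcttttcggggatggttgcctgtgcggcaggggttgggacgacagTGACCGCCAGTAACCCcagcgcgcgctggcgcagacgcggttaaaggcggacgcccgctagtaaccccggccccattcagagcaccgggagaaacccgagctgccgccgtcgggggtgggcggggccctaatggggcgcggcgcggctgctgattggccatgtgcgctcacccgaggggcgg
Cd36: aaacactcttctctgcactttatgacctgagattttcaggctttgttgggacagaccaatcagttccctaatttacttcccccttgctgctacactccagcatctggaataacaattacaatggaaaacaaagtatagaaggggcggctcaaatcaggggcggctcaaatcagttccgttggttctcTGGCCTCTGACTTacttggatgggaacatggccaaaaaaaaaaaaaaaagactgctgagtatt
A match of letters is a description of these windows and not evidence of binding.

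Abca1 and Abcg1 move cholesterol out of the cell, Abca1 to lipid-poor apolipoprotein and Abcg1 to formed lipoprotein particles. Abca1 (chromosome 4, 53030787 to 53159895) was at 49.5, 50.02, 47.2, 59.1 and 86.3 CPM in D370Y libraries and 51.1, 47.5 and 48.4 CPM in WT libraries. D370Y replicates 1 and 2 lay within the WT range, replicate 3 just below it and replicates 4 and 5 above it, and the difference of 0.21 ± 0.16 became 0.06 without replicate 5. ImuBcl6 D370Y libraries had 31.9, 29.9, 30.5, 32.6 and 30.9 CPM, closely grouped, against 34.4, 23.0, 20.1, 19.8 and 15.1 CPM in ImuBcl6 libraries. ImuBcl6 replicate 1 was above every ImuBcl6 D370Y library and the other 4 were below them, and the difference was 0.50 ± 0.16. Libraries labelled KO had 18.2, 25.5, 29.5, 14.0 and 15.4 CPM and Cre controls 8.53, 11.1, 9.57, 10.4 and 9.86 CPM. Every library labelled KO was above every Cre control, by 0.93 ± 0.17 on the log2 scale.

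Abcg1 (chromosome 17, 31057675 to 31117988) had 20.9, 15.8, 18.9, 23.3 and 23.3 CPM in D370Y libraries and 15.4, 9.90 and 11.6 CPM in WT libraries, with no overlap and a difference of 0.69 ± 0.14. ImuBcl6 D370Y libraries had 12.0, 13.8, 8.56, 19.3 and 14.1 CPM against 6.08, 10.2, 7.63, 6.66 and 7.44 CPM in ImuBcl6 libraries. Here ImuBcl6 D370Y replicate 3 lay inside the control range, and the difference was 0.74 ± 0.18. Libraries labelled KO had 17.97, 16.2, 11.7, 15.0 and 12.7 CPM and Cre controls 6.995, 6.94, 7.39, 8.18 and 9.13 CPM, a difference of 0.84 ± 0.12 with no overlap. Per kilobase of exon, Abca1 averaged 5.64 ± 1.57 and Abcg1 2.80 ± 0.437 CPM in D370Y libraries (SD, n = 5), while in libraries labelled KO the means were 1.98 ± 0.646 and 2.02 ± 0.352 (SD, n = 5) and did not differ beyond their spread.

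Mylip (chromosome 13, 45389742 to 45412022) encodes IDOL, a ubiquitin ligase that sends the LDL receptor for degradation. It had 48.9, 53.3, 49.6, 55.3 and 66.3 CPM in D370Y and 47.8, 47.2 and 50.3 CPM in WT libraries, overlapping, with a difference of 0.16 ± 0.09. Without D370Y replicate 5 that difference was 0.09. All 5 ImuBcl6 D370Y libraries (28.9, 29.8, 27.9, 32.7 and 31.9 CPM) lay above all 5 ImuBcl6 libraries (26.1, 24.2, 26.5, 23.4 and 21.3 CPM), by 0.31 ± 0.07. Libraries labelled KO (38.6, 47.7, 32.8, 39.7 and 36.0 CPM) overlapped Cre controls (28.1, 31.2, 32.8, 36.8 and 31.4 CPM), with a difference of 0.27 ± 0.11.

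Srebf1 (chromosome 11, 60199089 to 60222581), which encodes the activator of fatty acid synthesis genes SREBP1 and is a classical LXR target in liver, showed overlapping groups in all 3 pairs. D370Y libraries had 108 to 135 CPM and WT libraries 104 to 121 CPM (0.10 ± 0.08). ImuBcl6 D370Y libraries had 72.7 to 104 CPM and ImuBcl6 libraries 78.3 to 114 CPM (-0.11 ± 0.11), and libraries labelled KO had 122 to 194 CPM and Cre controls 130.2 to 157 CPM (0.06 ± 0.12). Lpcat3 (chromosome 6, 124663027 to 124704418), the acyltransferase that puts polyunsaturated chains into membrane phospholipids, was at 49.1, 54.8, 48.8, 50.3 and 55.9 CPM in D370Y and 48.5, 48.7 and 48.6 CPM in WT libraries. All D370Y libraries were above WT, but by only 0.09 ± 0.07. ImuBcl6 D370Y libraries (67.4 to 77.0 CPM) stood 0.17 ± 0.06 above ImuBcl6 libraries (60.7 to 67.4 CPM), with a slight overlap. In libraries labelled KO Lpcat3 was at 97.9, 89.8, 56.1, 94.7 and 94.2 CPM, and in Cre controls at 85.1, 78.6, 78.1, 80.8 and 77.3 CPM. Replicate 3 of the libraries labelled KO was below all Cre controls and the other 4 were above them, and the difference was 0.09 ± 0.13, or 0.23 without it.

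Cd36 (chromosome 5, 17781690 to 17888801) encodes a scavenger receptor and fatty acid transporter of the cell surface, known as a target of PPAR gamma in macrophages and of LXR in mouse liver. It was at 80.5, 79.6, 94.3, 94.6 and 189 CPM in D370Y libraries and 43.6, 49.3 and 57.3 CPM in WT libraries. All D370Y libraries were above WT, with replicate 5 far above the rest, and the difference was 1.02 ± 0.24, or 0.79 without that replicate. ImuBcl6 D370Y libraries had 112, 110.1, 112, 80.0 and 90.4 CPM and ImuBcl6 libraries 62.1, 47.1, 35.3, 32.7 and 27.0 CPM, a difference of 1.33 ± 0.19 with no overlap. Libraries labelled KO had 29.0, 35.9, 26.8, 37.5 and 22.0 CPM and Cre controls 12.2, 11.8, 9.86, 7.34 and 10.4 CPM, a difference of 1.46 ± 0.15, again with no overlap. In order of mean level the groups ran D370Y, ImuBcl6 D370Y, WT, ImuBcl6, KO and Cre control. D370Y and ImuBcl6 D370Y overlapped, as did WT and ImuBcl6, and ImuBcl6 and KO. The order across pairs is a description only. Groups of different pairs also differ in ways given below, so it cannot be read as an effect of genotype.

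Mgll (chromosome 6, 88724412 to 88828360) encodes monoacylglycerol lipase, which frees the last fatty acid from a glyceride. It had 8.55, 10.6, 11.4, 11.4 and 11.4 CPM in D370Y and 8.52, 8.39 and 7.80 CPM in WT libraries, without overlap but with replicate 1 close to WT, and a difference of 0.33 ± 0.10. ImuBcl6 D370Y libraries (6.99, 7.79, 12.7, 8.97 and 8.82 CPM) and ImuBcl6 libraries (5.77, 7.74, 7.77, 8.70 and 9.50 CPM) overlapped, with a difference of 0.17 ± 0.15 that became 0.05 without ImuBcl6 D370Y replicate 3. Mgll was furthest from its control in the libraries labelled KO, at 27.6, 28.9, 18.5, 23.2 and 24.6 CPM against 14.2, 10.4, 14.6, 13.2 and 11.5 CPM in Cre controls, a difference of 0.89 ± 0.13.

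Osbpl3 (chromosome 6, 50293330 to 50456201), an oxysterol-binding protein relative that carries lipid between the endoplasmic reticulum and the plasma membrane, was lower with each allele. D370Y libraries had 30.4, 38.3, 22.9, 20.2 and 11.5 CPM and WT libraries 28.7, 33.0 and 24.3 CPM. These overlapped, and the difference of -0.30 ± 0.29 was -0.07 without D370Y replicate 5 and -0.48 without D370Y replicate 2. ImuBcl6 D370Y libraries had 38.6, 69.0, 39.8, 40.6 and 38.5 CPM, all below the 75.6, 87.8, 94.8, 88.7 and 103 CPM of ImuBcl6 libraries, a difference of -1.01 ± 0.15. Libraries labelled KO had 15.1, 15.6, 13.6, 8.71 and 12.2 CPM, all below the 24.1, 30.8, 28.1, 32.04 and 28.4 CPM of Cre controls, a difference of -1.10 ± 0.13.

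**Figure D2:**
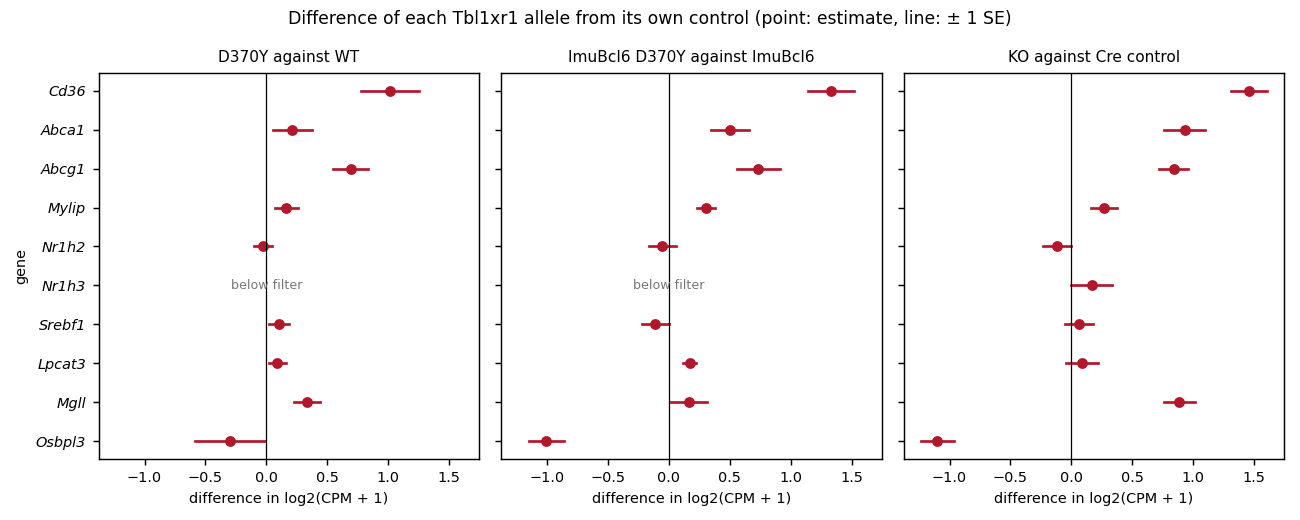
Difference in log2(CPM + 1) between each allele group and its own control (horizontal axis; point, limma estimate; line, 1 SE each side) for the 10 genes, with genes that did not pass the filter on low values marked. Cd36 lies furthest to the right in each panel, at 1.02, 1.33 and 1.46, and Osbpl3 furthest to the left.

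Every library of the allele was above every control for 4 of 10 genes in D370Y (Cd36, Abcg1, Lpcat3 and Mgll; 7.5% of all genes tested), 2 in ImuBcl6 D370Y (Cd36 and Mylip; 3.32%) and 4 in libraries labelled KO (Cd36, Abca1, Abcg1 and Mgll; 0.742%). With Osbpl3, the groups did not overlap in either direction for 4, 3 and 5 of the 10 genes, against 14.8%, 8.96% and 4.23% of all genes tested. The genes were chosen with these contrasts in view, so nothing is read from these counts. With sex as a term in the comparison of libraries labelled KO with Cre controls, the log2 difference was 1.57 ± 0.14 for Cd36, 1.10 ± 0.14 for Abca1, 0.79 ± 0.13 for Abcg1, 0.85 ± 0.13 for Mgll and -1.06 ± 0.14 for Osbpl3 (SE).

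Macrophages express Cd36, Abca1, Abcg1 and Nr1h3, and marginal zone B cells express Cd36, so their markers were measured beside these values. Rose and fell are used of genes called by limma at a Benjamini-Hochberg adjusted p below 0.05, which were 3.55% of all genes tested in D370Y against WT, 8.18% in ImuBcl6 D370Y against ImuBcl6 and 1.39% in KO against Cre control libraries. Of the macrophage list, 5 of 11 tested genes rose in D370Y libraries, among them Lyz2 (4.25 ± 1.36 against 0.999 ± 0.223 CPM in WT, SD, n = 5 and 3), and its summed level was 45.0 to 61.6 CPM in D370Y and 20.5 to 29.3 CPM in WT libraries. In ImuBcl6 D370Y libraries 5 of 8 rose, with sums of 39.1 to 61.9 CPM against 22.3 to 27.5 CPM in ImuBcl6 libraries. The markers at under 1 CPM in all 4 of these groups were Timd4, Cd14, Fcgr1, Marco and Cd163, and no macrophage marker was at 0 in every library of a group. In both pairs the sum moved with Cd36 and Abcg1, and its part in their difference was not tested. Among the D370Y libraries replicate 5, with the most Cd36 (189 CPM), had the lowest macrophage sum (45.0 CPM), and replicate 2, with the least Cd36 (79.6 CPM), the highest (61.6 CPM). Among ImuBcl6 libraries replicate 1, with the most Cd36 (62.1 CPM), had the lowest sum (22.3 CPM). ImuBcl6 D370Y replicates 1 and 3 had nearly the same Cd36, the most of their group (112.4 and 111.7 CPM). Replicate 1 had the lowest sum of that group (39.1 CPM) and replicate 3 the highest (61.9 CPM). KO replicate 4 had both the most Cd36 (37.5 CPM) and the highest sum (215 CPM) of its group. Cre control replicate 1 did so too (12.2 and 163 CPM). WT replicate 3, with the most Cd36 (57.3 CPM), had the middle sum (22.5 CPM). In libraries labelled KO the sum was 89.4 to 215 CPM against 111 to 163 CPM in Cre controls, ranges that overlap. Limma called 0 of 12 markers there (1 at an unadjusted p under 0.05, 0 by edgeR and 0 by DESeq2). Cd36 was 1.46 and Abca1 0.93 higher in this pair, and the part of macrophage RNA in those differences was not tested.

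Of the 7 marginal zone markers, 2 rose in D370Y libraries (Fcrl5 and Cd1d1) and 2 in ImuBcl6 D370Y libraries (Fcrl5 and S1pr3). Their summed level was 513 to 875 CPM in D370Y and 568 to 639 CPM in WT libraries, 362 to 432 CPM in ImuBcl6 D370Y and 336 to 377 CPM in ImuBcl6 libraries, and 317 to 409 CPM in libraries labelled KO and 349 to 437 CPM in Cre controls. The highest sum, 875 CPM, was in D370Y replicate 5, the library with 189 CPM of Cd36 and 86.3 CPM of Abca1. The D370Y sums rested largely on Cr2, at 225 to 602 CPM in those libraries, with Dtx1 next at 145 to 171 CPM. Cr2 was not among the markers that rose. No marginal zone marker was called in libraries labelled KO by limma (0 higher and 1 lower at an unadjusted p under 0.05). By edgeR 0 were called, and by DESeq2 1, which was higher. Platelet markers, of cells that also carry CD36, summed to at most 0.516 CPM in any library. Endothelial cells also carry CD36. Of their 6 markers Emcn was at 0 in every library, Tek in every library outside those labelled KO, and Kdr and Vwf were under 1 CPM throughout. Cdh5 averaged 2.20 ± 0.599 CPM in D370Y and 1.76 ± 0.269 CPM in WT libraries (SD, n = 5 and 3). It averaged 3.11 ± 0.707 CPM in ImuBcl6 D370Y and 2.76 ± 0.253 CPM in ImuBcl6 libraries (SD, n = 5 each). Its means were 2.98 ± 0.791 CPM in libraries labelled KO and 1.75 ± 0.179 CPM in Cre controls (SD, n = 5 each). The list summed to 74.7 to 113 CPM in D370Y and 71.2 to 72.1 CPM in WT libraries, 60.3 to 94.2 CPM in ImuBcl6 D370Y and 45.5 to 60.4 CPM in ImuBcl6 libraries, and 52.6 to 77.1 CPM in libraries labelled KO and 50.1 to 63.2 CPM in Cre controls. Nearly all of it was Pecam1, an adhesion molecule that leukocytes carry too, and its highest value was again in D370Y replicate 5. Pecam1 rose in ImuBcl6 D370Y libraries (69.1 ± 13.4 against 50.9 ± 6.05 CPM in ImuBcl6, SD, n = 5 each; 0.42 ± 0.12, limma adjusted p = 0.0455). Limma called 0 of the 2 markers tested in D370Y libraries (1 at an unadjusted p under 0.05, 0 by edgeR and 0 by DESeq2) and 0 of 2 in libraries labelled KO (1 at an unadjusted p under 0.05, 1 by edgeR and 2 by DESeq2). The part of this list in the differences of the 10 genes was not tested. Of the 11 germinal center B cell markers 1 fell in D370Y, 2 in ImuBcl6 D370Y and 1 in libraries labelled KO. The T cell markers summed to 4.47 to 10.6 CPM in ImuBcl6 D370Y and 1.54 to 3.56 CPM in ImuBcl6 libraries. Most of this was Cd3g, at 5.96 ± 2.67 CPM in ImuBcl6 D370Y and 1.48 ± 0.670 CPM in ImuBcl6 libraries (SD, n = 5 each), the one T cell marker tested in this pair, while Cd3e averaged 0.134 and 0.163 CPM. In bulk RNA, fewer cells of a type and less RNA per cell cannot be told apart.

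**Figure D3:**
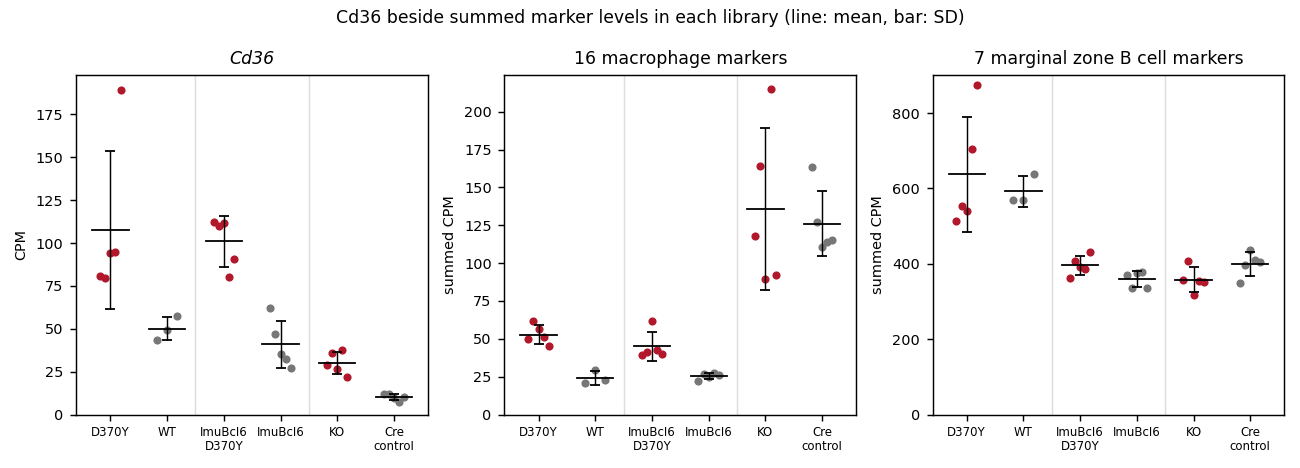
CPM of Cd36 (left), summed CPM of 16 macrophage markers (middle) and summed CPM of 7 marginal zone B cell markers (right) in each library, by group, with the mean (long line) and 1 SD (bar). The macrophage sum is higher in D370Y and ImuBcl6 D370Y libraries than in their controls. It overlaps between libraries labelled KO (89.4 to 215 CPM) and Cre controls (111 to 163 CPM). Cd36 does not overlap between an allele and its control in any pair.

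The contrasts that did not pick the genes could be tested, although their libraries also enter the comparisons above. The ImuBcl6 transgene was set against its absence on both Tbl1xr1 backgrounds. In ImuBcl6 against WT libraries 53.3% of 10889 genes were called, and in ImuBcl6 D370Y against D370Y libraries 54% of 10780 genes, where 5 of 9 and 7 of 9 of the genes tested were called. Nothing particular to the genes is read from those counts. Libraries with the transgene held 31.8 to 37.7 M reads and those without it 19.0 to 22.2 M. All ImuBcl6 libraries were of the Xist pattern and all WT of the Y pattern, all ImuBcl6 D370Y of the Y pattern and all D370Y of the Xist pattern, so within a pair transgene, depth and sex cannot be told apart. Depth ran the same way as the transgene in both pairs, while the sex patterns ran opposite ways.

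The efflux genes and Mylip were lower with the transgene on both backgrounds. Abca1 averaged 22.5 ± 7.22 CPM in ImuBcl6 libraries and 49.0 ± 1.87 CPM in WT libraries (SD, n = 5 and 3), a log2 difference of -1.14 ± 0.19 (SE, limma adjusted p = 0.000616). In ImuBcl6 D370Y libraries it averaged 31.2 ± 1.09 CPM and in D370Y libraries 58.4 ± 16.2 CPM (SD, n = 5 each; -0.85 ± 0.13, limma adjusted p = 9.3e-05). Every library with the transgene was below every library without it on each background. Abcg1 was lower as well, with -0.63 ± 0.16 in ImuBcl6 against WT (limma adjusted p = 0.00732) and -0.59 ± 0.16 in ImuBcl6 D370Y against D370Y libraries (adjusted p = 0.0077). Mylip fell by 0.97 ± 0.08 and 0.83 ± 0.08 on the log2 scale (limma adjusted p = 3.01e-06 and 2.01e-06), with no overlap in either pair.

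Osbpl3 and Lpcat3 were higher with the transgene. Osbpl3 averaged 89.9 ± 9.97 CPM in ImuBcl6 and 28.7 ± 4.34 CPM in WT libraries (SD, n = 5 and 3; 1.62 ± 0.11, limma adjusted p = 5.39e-07), and 45.3 ± 13.3 CPM in ImuBcl6 D370Y and 24.7 ± 10.2 CPM in D370Y libraries (SD, n = 5 each; 0.91 ± 0.25, limma adjusted p = 0.00669). It was the gene of the 10 with the largest difference in the first of these pairs. Lpcat3 rose by 0.39 ± 0.06 in ImuBcl6 against WT libraries (limma adjusted p = 0.000273) and by 0.47 ± 0.06 in ImuBcl6 D370Y against D370Y libraries (limma adjusted p = 2.86e-05). Nr1h2 and Srebf1 fell in ImuBcl6 D370Y against D370Y libraries, with differences of -0.28 ± 0.07 (limma adjusted p = 0.00442) and -0.47 ± 0.09 (adjusted p = 0.000654). In ImuBcl6 against WT libraries neither passed, at -0.26 ± 0.13 (limma adjusted p = 0.104) and -0.25 ± 0.11 (adjusted p = 0.0743), although Srebf1 passed without ImuBcl6 replicate 2 (-0.32, adjusted p = 0.0191). Whether these effects differ between the backgrounds was not tested.

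Cd36 and Mgll did not pass on either background. Cd36 was at 40.9 ± 14.0 CPM in ImuBcl6 and 50.1 ± 6.87 CPM in WT libraries (SD, n = 5 and 3), a difference of -0.34 with a 95% interval from -0.82 to 0.14 (limma adjusted p = 0.214). Without ImuBcl6 replicate 1, the library with 62.1 CPM, the difference passed at -0.50 (adjusted p = 0.0173). In ImuBcl6 D370Y against D370Y libraries it was -0.02, with an interval from -0.44 to 0.39 (limma adjusted p = 0.93). Mgll differed by -0.07 with an interval from -0.36 to 0.22 in ImuBcl6 against WT (limma adjusted p = 0.684) and by -0.23, from -0.52 to 0.05, in ImuBcl6 D370Y against D370Y libraries (limma adjusted p = 0.146). Without ImuBcl6 D370Y replicate 3 that second difference passed, at -0.35 (adjusted p = 0.0144).

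**Figure D4:**
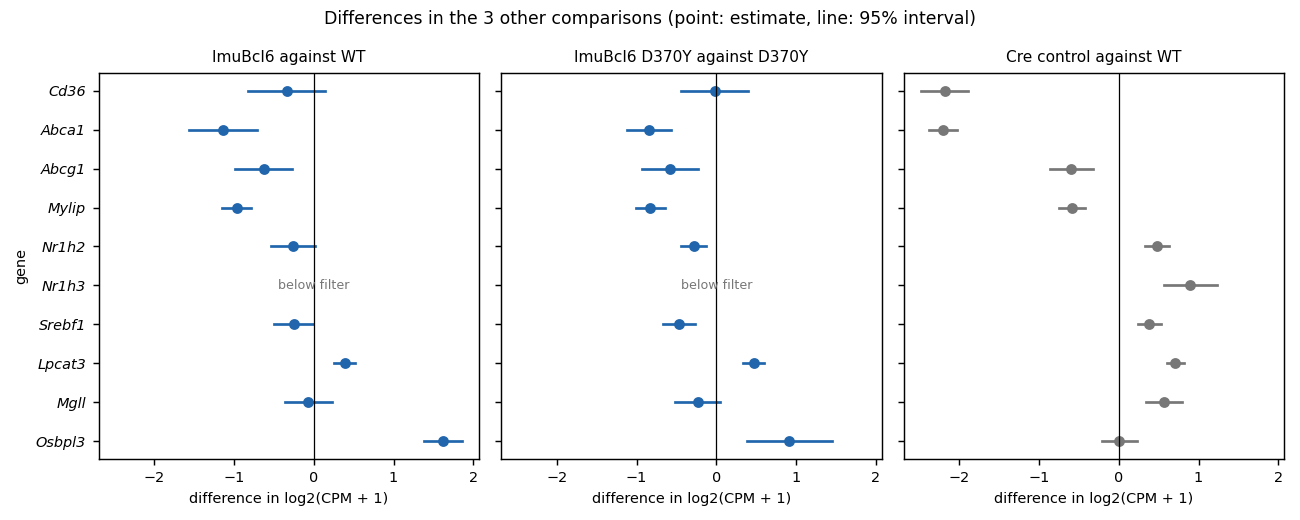
Difference in log2(CPM + 1) (horizontal axis; point, limma estimate; line, 95% interval) for the 10 genes in ImuBcl6 against WT, ImuBcl6 D370Y against D370Y and Cre control against WT libraries, with genes below the filter on low values marked. Abca1 is left of 0 in all 3 panels (-1.14, -0.85 and -2.20), and Osbpl3 is right of 0 in the first and second (1.62 and 0.91).

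Cre control and WT libraries carry the same genotype label but differ in their protocol text, the Cre controls with a stranded TruSeq kit named in the protocol and WT with no kit given. Limma called 77.2% of 10720 genes between them, so levels of the 10 genes cannot be read across these groups as an effect of genotype. Cd36 averaged 10.3 ± 1.91 CPM in Cre control and 50.1 ± 6.87 CPM in WT libraries (SD, n = 5 and 3; -2.18 ± 0.14, limma adjusted p = 1.09e-08), and Abca1 9.89 ± 0.962 and 49.0 ± 1.87 CPM (-2.20 ± 0.08, limma adjusted p = 2.4e-11). Among the 10 genes these gaps are larger than any between an allele and its control. Abcg1 (-0.59 ± 0.13) and Mylip (-0.58 ± 0.08) were also lower in Cre controls, while Nr1h2 (0.48 ± 0.07), Nr1h3 (0.90 ± 0.16), Srebf1 (0.38 ± 0.07), Lpcat3 (0.71 ± 0.05) and Mgll (0.57 ± 0.11) were higher, all called by limma. Osbpl3 did not pass (0.0049, with a 95% interval from -0.21 to 0.22, limma adjusted p = 0.967). Kit and any difference between the mice cannot be told apart here.

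Other lipid genes showed few calls between an allele and its control. Of 100 genes in 8 lists, 72 were tested in D370Y against WT libraries and 4 were called, 5.56% against 3.55% of all genes, with a median difference of 0.02 against -0.02 over all genes. The LXR target Tgm2, a transglutaminase, was at 1.41 ± 0.200 CPM in D370Y and 0.578 ± 0.117 CPM in WT libraries (SD, n = 5 and 3; 0.61 ± 0.13, limma adjusted p = 0.0194). The transporter Abca2 rose by 0.51 ± 0.10 (adjusted p = 0.0129) and the fatty acid transporter Slc27a1 by 0.78 ± 0.14 (adjusted p = 0.00725). Abca2 was not called without any one of the 3 WT replicates (adjusted p = 0.0530 to 0.0946), nor was Tgm2 (0.0661 to 0.123), and Tgm2 was not called with all 28 libraries in 1 fit either (0.228, all from limma). Slc27a1 was called in all 17 other settings. Cpt1a, the gate for fatty acid entry into mitochondria, fell by 0.24 ± 0.06 (147 ± 6.21 against 174 ± 2.97 CPM in WT, limma adjusted p = 0.0459). It was not called without the filter on low values, under TMM scaling, over listed genes, with a replicate block, with all 28 libraries in 1 fit or by edgeR, nor without any of D370Y replicates 2, 3 and 5 or any WT replicate.

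In ImuBcl6 D370Y against ImuBcl6 libraries 8 of 70 were called, 11.4% against 8.18% of all genes, with a median of -0.05 against -0.01. Those that rose were the phospholipid transfer protein Pltp (15.9 ± 7.77 CPM in ImuBcl6 D370Y and 6.62 ± 1.07 CPM in ImuBcl6 libraries, SD, n = 5 each; 1.05 ± 0.24, limma adjusted p = 0.0179), the cholesterol-binding Npc2 (0.39 ± 0.10), the desaturase Scd1 (0.22 ± 0.06) and the monoacylglycerol hydrolase Abhd6 (0.50 ± 0.10). Those that fell were the desaturase Fads2 (-1.04 ± 0.18, 8.90 ± 3.27 against 18.6 ± 1.98 CPM in ImuBcl6 libraries, limma adjusted p = 0.00604), the fatty acid synthase Fasn (-0.35 ± 0.09), the transporter Abca3 (-0.40 ± 0.07) and the coactivator Ncoa6 (-0.39 ± 0.08). Abca3, Abhd6, Fads2 and Ncoa6 were called in all 19 other settings. Calls were lost in 9 of those settings for Scd1, 8 for Fasn and 5 for Npc2, mostly where a library was left out, and for Pltp without ImuBcl6 D370Y replicate 3 (0.97, limma adjusted p = 0.0504). Of the LXR target list 3 were thus higher and 2 lower, so it did not move in a single direction.

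In libraries labelled KO against Cre controls 2 of 71 were called, 2.82% against 1.39% of all genes, with a median of -0.04 against -0.06. Both were lower, the sterol hydroxylase Cyp27a1 (5.06 ± 0.605 against 7.65 ± 0.324 CPM in Cre controls, SD, n = 5 each; -0.52 ± 0.10, limma adjusted p = 0.0123) and the lipid droplet protein Plin2 (-0.76 ± 0.12, adjusted p = 0.00209). Plin2 was called in all 20 other settings, and Cyp27a1 in all but the fit of all 28 libraries (limma adjusted p = 0.0508). Limma called 0 higher (2 at an unadjusted p under 0.05, 2 by edgeR and 3 by DESeq2). With the ImuBcl6 transgene 33 of 71 and 39 of 72 list genes were called in ImuBcl6 against WT and ImuBcl6 D370Y against D370Y libraries, 46.5% and 54.2% against 53.3% and 54% of all genes.

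**Figure D5:**
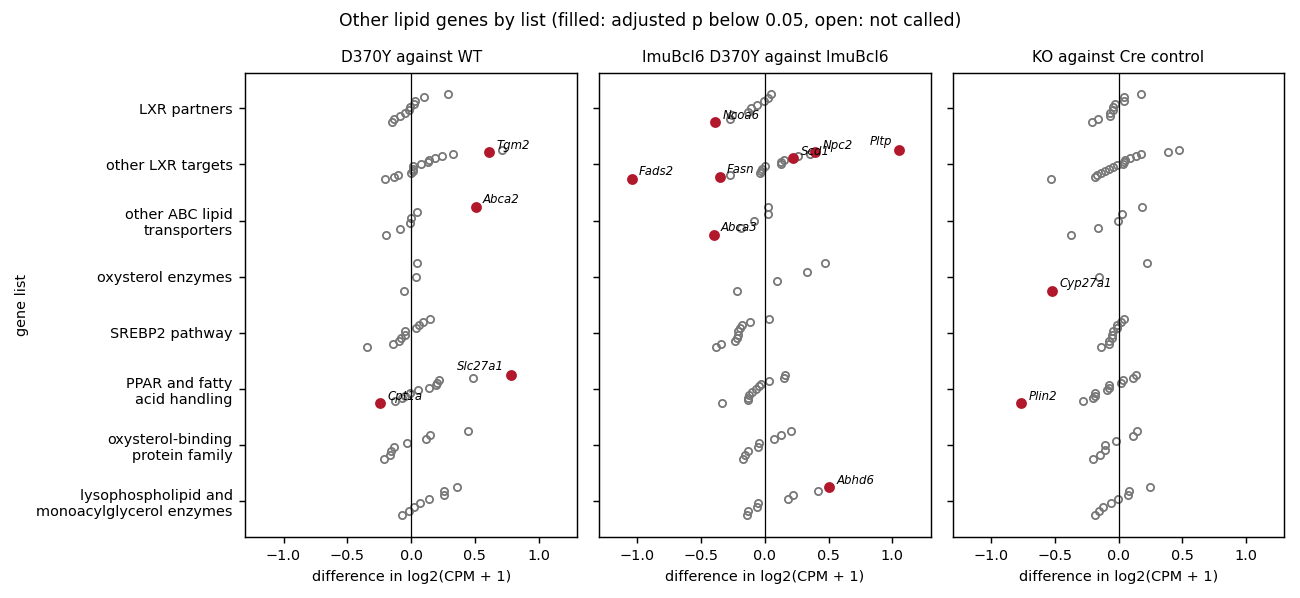
Difference in log2(CPM + 1) of each tested gene of 8 lipid gene lists (vertical axis: list) in the 3 comparisons of an allele with its control; filled points are called by limma at an adjusted p below 0.05 and named, open points are not called. There are 4, 8 and 2 filled points, on both sides of 0 except in the libraries labelled KO, where Cyp27a1 and Plin2 lie left of it.

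The genes whose pattern was most like that of Cd36, by root mean square difference of their deviations from their pair's mean over the 28 libraries, were St3gal6 (0.32 log2 units), Zeb2 (0.34), Grap2 (0.39), Bcl2 (0.41) and Nid1 (0.42), against a median of 0.75 over 8436 genes. St3gal6, a sialyltransferase, was 0.77, 0.81 and 1.01 higher with D370Y, ImuBcl6 D370Y and KO in that measure. For Abca1 they were Bank1 (0.24), Dock10 (0.24), Cmah (0.25), Gimap8 (0.25) and Map3k1 (0.25), against a median of 0.47. For Osbpl3 they were Aif1l (0.23), Etl4 (0.28), Unc13a (0.30), Cdc14b (0.31) and Myzap (0.31), against a median of 0.56. A gene that stayed at its pair means would stand at 0.72 from Cd36, 0.42 from Abca1 and 0.55 from Osbpl3. The deviations include the allele differences in view when the genes were chosen. Similar allele differences in the closest genes thus follow from the search, and nothing is inferred from them.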

How the data were processed

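Per the submitters' processing notes, reads were aligned with STAR to mm10; how reads were counted and on which annotation is not stated there. The deposited files hold CPM per gene symbol. In each library 100% of the deposited values gave whole reads within 0.01, so reads were recovered. The listed genes held 64.4% to 84.6% of the reads in the authors' CPM denominator. The 64.4% was KO replicate 3 alone, and every other library had at least 78.7%. A low share lowers the CPM of listed genes in that library. Coordinates and exon lengths come from GENCODE M21 (GRCm38).

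Genes with at least 1 CPM in as many libraries as the smaller group were fitted per pair on log2(CPM + 1), which understates changes of low genes, with limma 3.58.1 in R 4.3.3 (mean-variance trend, robust moderation), two-sided, Benjamini-Hochberg adjusted over all genes tested and called below 0.05. All 10 genes passed in the KO and Cre control pairs, 9 elsewhere. edgeR 4.0.16 and DESeq2 1.42.0 on recovered reads, other pseudocounts (0.1 and 5), scalings, filters, a fit of all 28 libraries, a replicate block, a sex term and leaving out each library were alternatives. The limma step was tested on simulated data. No pair of libraries agreed within sampling noise (lowest chi-square per degree of freedom 3.65). KO replicate 3 stood apart from its group, at 103 to 180 against the other libraries labelled KO. Pairs among those others had 13.2 to 39.9.

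The 10 genes, the lipid gene lists and the marker lists were chosen with earlier results of these data known. Named beyond the 10 were, per list and comparison, up to 3 called genes in each direction by size, and the 5 closest patterns to Cd36, Abca1 and Osbpl3 among genes with a mean of at least 5 CPM. Sex patterns were read from Xist and Y-linked genes.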

Additional observations from a re-analysis of the deposited data

Results flagged for a closer look

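In 7 of 50 combinations of gene and group a single library stood far from its 4 group mates (the gap to the nearest value over the group's range exceeded Dixon's 95% limit, which chance passes in about 1 of 20 groups). Cd36 was at 189 CPM in D370Y replicate 5, where the next library had 94.6 CPM. Nr1h2 was lowest in Cre control replicate 1, at 86.9 CPM against 103 CPM in the next. Nr1h3 was highest in D370Y replicate 3 (1.38 CPM, next 0.859 CPM) and in Cre control replicate 1 (3.36 CPM, next 2.31 CPM). Lpcat3 was lowest in KO replicate 3 (56.1 CPM, next 89.8 CPM). In that library the listed genes held only 64.4% of the CPM denominator. It also had the lowest Nr1h2, Nr1h3, Srebf1, Mylip, Mgll and Abcg1 of its group, and the highest Abca1. Mgll was lowest in D370Y replicate 1 (8.55 CPM, next 10.6 CPM), and Osbpl3 was highest in ImuBcl6 D370Y replicate 2 (69.0 CPM, next 40.6 CPM). Without that ImuBcl6 D370Y library the Osbpl3 difference was -1.16.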

How the results depend on the processing

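The number of genes called in D370Y against WT (376, 73.4% higher) was 219 without the filter on low values, 659 by DESeq2 and 249 with all 28 libraries in 1 fit, and 124 to 473 when a library was left out. In ImuBcl6 D370Y against ImuBcl6 (882, 34.2% higher) DESeq2 gave 1378 (45.3% higher), and leaving out a library gave 434 to 1016. In the KO comparison (146, 34.2% higher) the counts were 86 without the filter, 239 with CPM over listed genes (48.5% higher), 238 by edgeR (49.2%), 455 by DESeq2 (50.5%) and 279 with all 28 libraries, and 87 to 449 leaving out a library, the most without KO replicate 3 (51.9%). The cause of these shifts was not tested.

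Cd36, Abcg1 and Mgll kept the sign of their difference from the allele's own control in every setting, and Osbpl3 kept it in the ImuBcl6 D370Y and KO comparisons. The median difference over the genes stayed between 0.07 and 0.34 against main values of 0.15, 0.16 and 0.25. In the allele comparisons signs also turned for Nr1h2 in D370Y (0.01 over listed genes, 0.0038 without WT replicate 2), Srebf1 without KO replicate 2 (-0.02) and Lpcat3 with a sex term (-0.02). List genes called ran from 1 to 7 higher in D370Y, and from 0 to 3 higher in the KO comparison.

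Replicate numbers did not pair the libraries (correlations of same-numbered libraries -0.28 to 0.51). A replicate block gave 754 genes in D370Y against WT, using only the 3 numbers those groups share and so without D370Y replicates 4 and 5. There Abca1 came to -0.0021 and Osbpl3 to 0.07. Nr1h2 in ImuBcl6 against WT was called with the block (-0.37, adjusted p = 0.0110, from limma).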
